A study of Homo sapiens with 30 samples.

Results

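The zinc finger genes with a ZNF symbol on human chromosome 19 were followed through 3 RNA-seq experiments in 5637 cells. A gene was taken if its symbol was ZNF followed by digits, with a letter suffix allowed, if the deposited overexpression table placed it on chromosome 19, and if it was found in all 3 count tables. Of 246 such genes, 228 had 10 or more counts in 3 libraries of at least 1 table and are called members here, among 17197 genes of the whole series kept by the same count rule. The other 18 were not kept. Among them ZNF807 came closest, with 7 counts in its third-highest library, and the lowest members were ZNF285B with 14, ZNF667 with 16 and ZNF730 with 18. The count was reached in the knockout table by 225 members, in the overexpression table by 224, in the knockdown table by 207 and in all 3 tables by 207.

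The 5637 line is an established human bladder carcinoma line, and every group had 3 libraries. KO1 and KO2 were 5637 cells with a knockout of RBPMS, an RNA-binding protein, by either of a pair of guides, and each had its own control group (WT1 and WT2). ANKRD10-1 and ANKRD10-2 were cells overexpressing either of a pair of isoforms of the ankyrin repeat gene ANKRD10, against Vector. siANKRD10-1 and siANKRD10-2 were cells given siRNA to either isoform, against siNC. The study's discussion of its limits mentions that the knockout populations were grown up from single clones, so each knockout may stand for 1 clone. The study places ANKRD10-1 overexpression and siANKRD10-2 knockdown in RBPMS-knockout cells, whereas the labels name only 5637 cells for both. Whether WT1 and WT2 carried a control guide is not settled by the labels. No label says that the 3 libraries of a group came from separate cultures, so the p-values measure only the spread between these libraries.

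Most of these genes encode C2H2 zinc finger proteins, and many of those carry a KRAB domain. The fingers of such a protein read a DNA sequence, often inside a transposable element, and the KRAB domain recruits TRIM28, which brings in the histone methyltransferase SETDB1 and heterochromatin proteins to silence the site. The genes arose by repeated tandem duplication, lie in clusters along chromosome 19, and some of the clusters are themselves covered by heterochromatin. Near-identical copies and overlapping spans can share reads. The span of 164 members overlapped that of another listed gene, for 98 of them on the same strand, and how the authors' counting treated such reads was not stated.

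Total counts ran from 44593108 to 69723937 per library in the knockout table, from 31736779 to 47493499 in the overexpression table and from 28511029 to 32784584 in the knockdown table. Levels are given as CPM (a gene's counts relative to the total of its library, scaled by TMM over a whole table). RBPMS was at 14.3 to 15.2 CPM in KO1 against 39 to 42.2 in WT1, and at 19 to 21.3 in KO2 against 42.4 to 44.2 in WT2. The counts are per gene and do not separate the isoforms of ANKRD10. ANKRD10 was lower than WT1 in KO1 (log2 fold change -1.18, edgeR adjusted p = 6.55e-08) and lower than WT2 in KO2 (-0.76, adjusted p = 3.98e-08). It was higher than Vector in ANKRD10-1 (0.67, adjusted p = 4.41e-09) and in ANKRD10-2 (0.41, adjusted p = 8.3e-05). It was lower than siNC in siANKRD10-1 (-0.25, adjusted p = 0.014) and in siANKRD10-2 (-0.25, adjusted p = 0.00121), and the first of these calls was lost without siANKRD10-1 replicate 3 (-0.22) or siNC replicate 1 (-0.24). All 11 epithelial and urothelial markers listed averaged at least 1 CPM in every group, and their sum ran from 3920 to 7140 CPM. It moved within the knockdown experiment, from 6700 to 7140 CPM in siNC to 4110 to 4240 in siANKRD10-2. At most 1 of 5 immune and 1 of 3 endothelial markers averaged 1 CPM in any group, with sums of 0.191 to 1.36 and 1.13 to 3.06 CPM. Of the 5 fibroblast markers, 1 to 4 averaged at least 1 CPM depending on the group, with sums of 27.9 to 57.2 CPM. The fibroblast sum was 52.6 to 56.3 CPM in WT1 and 32.6 to 38.1 in KO1. The part of these shifts in the results on members was not tested.

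In KO1, chromosome 19 zinc finger genes moved in both directions, and the direction differed between stretches of the chromosome. Of 222 members tested against WT1, 105 fell and 43 rose (edgeR quasi-likelihood test, adjusted p under 0.05), with a median log2 fold change of -0.35. Over all 17865 genes tested, 18.2% fell and 17.9% rose, with a median of 0.00. Of the members 19.4% rose, near the share of all genes, and 47.3% fell. A rise of at least 2-fold was seen in 32 members, or 14.4% of those tested, against 2.1% of all genes. Some members passed the count filter only through KO1, such as ZNF257 with 0 counts in each WT1 library. The same filter was used for all genes. A fall of at least 2-fold was seen in 11 members, or 4.95%, near the 4.33% of all genes. Genes of chromosome 19 that are no zinc finger genes also fell, with 445 of 952 lower, 56 higher and a median of -0.40. The median of ZNF genes on other chromosomes was -0.06, with 50 of 233 lower and 27 higher. The medians of other chromosomes ran from -0.08 to 0.07 apart from chromosome 21 at -0.27. The median of members was thus close to that of the other genes of their chromosome, of which 13 rose at least 2-fold.

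**Figure D1:**
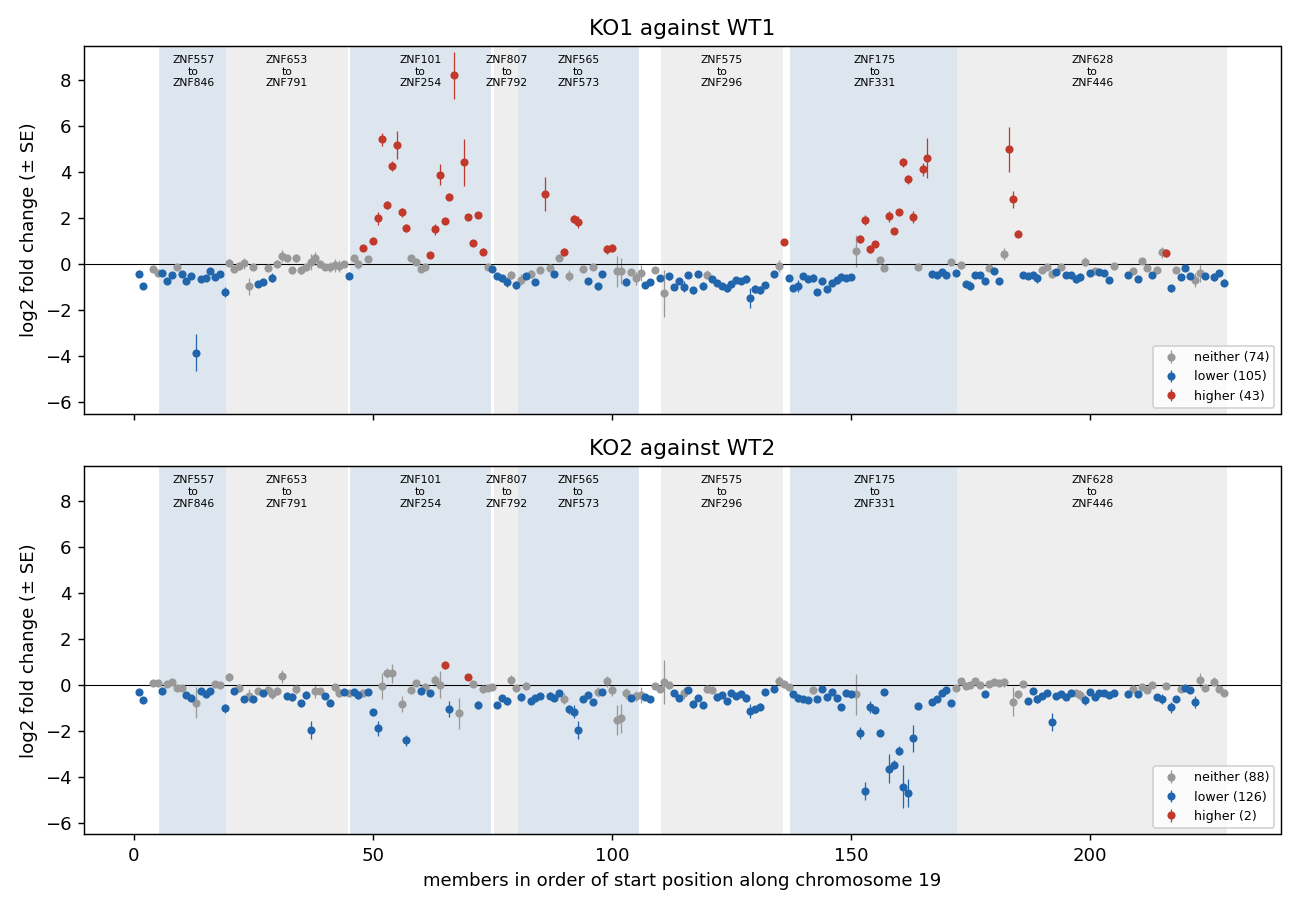
Log2 fold change of each tested member (points, with the standard error as a bar) in KO1 against WT1 (top) and KO2 against WT2 (bottom), in order of start position from 1 to 228. Red points were higher and blue points lower at an adjusted p under 0.05, grey points neither, and shaded bands are the 8 clusters, labelled by their first and last gene; the 43 rises in KO1 lie mostly in 2 bands, and the largest falls in KO2 lie in the band from ZNF175 to ZNF331.

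Clusters were defined as runs of ZNF genes whose neighbouring starts lay at most 1 Mb apart, with at least 5 tested members, and 8 of them held 214 of the 228 members. In KO1 the medians of the 8 clusters spanned 2.40 on the log2 scale, from -0.84 for the 24 members between ZNF575 and ZNF296 to 1.56 for the 28 between ZNF101 and ZNF254. In the first of these clusters 21 members fell and 0 rose, and the 31 other genes of the interval had a median of -0.60. In the second 20 rose and 0 fell, and the 17 other genes of the interval had a median of 0.25, with 4 higher and 2 lower. From ZNF653 to ZNF791 few members passed the test, with 3 of 25 lower, 0 higher and a median of -0.06. Members between ZNF557 and ZNF846 fell in 13 of 14 cases (median -0.53), close to the median of -0.61 of the 33 other genes there. In the largest cluster, from ZNF628 to ZNF446, 31 of 53 members fell and 4 rose (median -0.39), and the 29 other genes had a median of -0.58. From ZNF565 to ZNF573, 7 of 25 members fell and 6 rose, and from ZNF807 to ZNF792 4 of 5 fell. Neighbouring members moved alike: over 207 pairs of adjacent tested members of the same cluster, the log2 fold changes correlated with Pearson's r = 0.67. This r is a description, since each gene enters 2 pairs and adjacent genes can share reads.

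**Figure D2:**
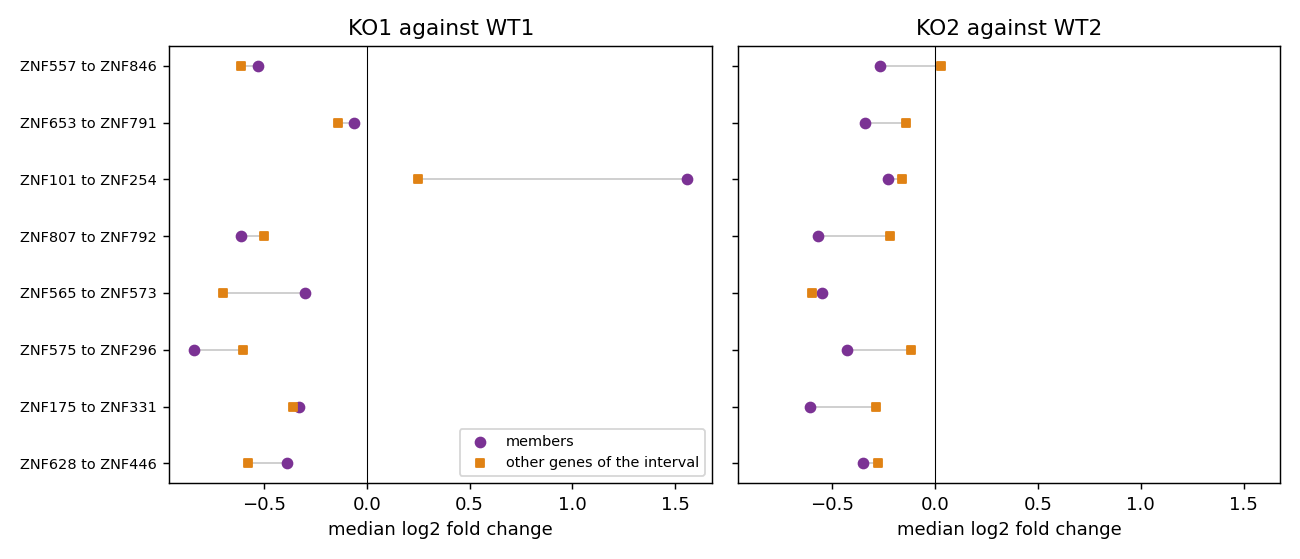
Median log2 fold change of the tested members of each of the 8 clusters (circles) and of the other genes tested in the same interval (squares), in KO1 against WT1 (left) and KO2 against WT2 (right). The members from ZNF101 to ZNF254 stand at 1.56 in KO1, above the 0.25 of the other genes of that interval. In KO2 all 8 medians of members lie below 0, and those of the other genes run from -0.60 to 0.03.

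The cluster from ZNF101 to ZNF254 lies between 19.7 and 24.1 Mb, in the part of the short arm next to the centromere, and holds the KRAB zinc finger genes related to ZNF91. Of its 20 risers 16 rose at least 2-fold. ZNF90 was at 11.8, 11.8 and 11.2 CPM in the KO1 libraries and at 0.134, 0.408 and 0.252 CPM in WT1, a 43.4-fold rise (log2 fold change 5.44 ± 0.27 SE, adjusted p = 1.49e-07). ZNF737 was at 9.97, 9.53 and 8.87 CPM in KO1 and at 0.576, 0.501 and 0.386 in WT1 (4.28 ± 0.20, adjusted p = 8.6e-08). ZNF43 was at 11.3, 12.5 and 12.1 CPM in KO1 and at 1.44, 1.56 and 1.65 in WT1 (2.95 ± 0.14, adjusted p = 1.13e-07). In all of these genes every KO1 library lay above every WT1 library. ZNF626 reached 1.74, 3.22 and 2.08 CPM from at most 0.119 CPM (5.19 ± 0.61, adjusted p = 7.91e-05). ZNF257 had 0 counts in each WT1 library and 48, 26 and 35 in KO1, at least 12.6-fold higher when each WT1 library is set to 3 counts.

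ZNF91, known for repressing SVA transposons, was at 33.7, 36.9 and 25.6 CPM in KO1 and at 7.35, 7.36 and 8.21 in WT1 (2.06 ± 0.13, adjusted p = 8.87e-07). ZNF93, known for repressing L1 elements, was at 14.7, 18.2 and 13.7 CPM in KO1 and at 7.58, 6.29 and 8.75 in WT1 (1.04, adjusted p = 0.000244). The rises did not take in every gene of the interval. ZNF714, which lies with ZNF430, ZNF431 and ZNF708 between the risers ZNF85 and ZNF738, was at 56.7, 58.5 and 48.0 CPM in KO1 and at 50.5, 52.9 and 50.1 in WT1 (0.09 ± 0.07, adjusted p = 0.409), and its groups overlapped. The 8 members that did not pass the test were ZNF101, ZNF14, ZNF253, ZNF430, ZNF714, ZNF431, ZNF708 and ZNF254. The summed level of the cluster was 242 to 250.2 CPM in the WT1 libraries and 346 to 438 in KO1, while the sum over all members was 3433 to 3513 CPM in WT1 and 2671 to 3045 in KO1. KO1 replicate 3 was the lowest KO1 library in both sums.

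**Figure D3:**
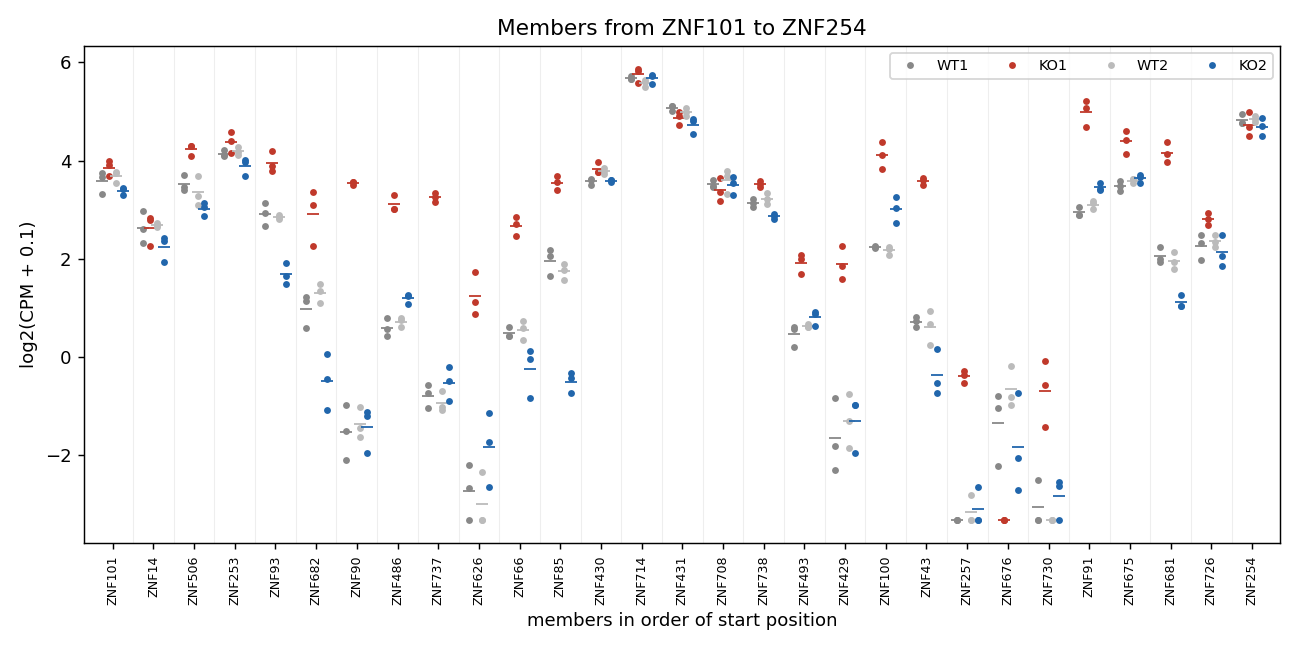
Level of each member from ZNF101 to ZNF254, in order of start position, as log2(CPM + 0.1) in each library (points) with the group mean (dash) for WT1, KO1, WT2 and KO2. KO1 stands above the controls for ZNF90, ZNF737, ZNF43 and ZNF91, and the 4 groups overlap at ZNF714.

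Promoters are shown for a pair of risers of this cluster and for ZNF714, which did not pass the test, so that their bases can be read side by side. Each is 250 bases before to 50 bases after the start given by RefSeq on GRCh38.p14, written 5′ to 3′ on the gene's strand, with each CG dinucleotide in capitals.
ZNF737: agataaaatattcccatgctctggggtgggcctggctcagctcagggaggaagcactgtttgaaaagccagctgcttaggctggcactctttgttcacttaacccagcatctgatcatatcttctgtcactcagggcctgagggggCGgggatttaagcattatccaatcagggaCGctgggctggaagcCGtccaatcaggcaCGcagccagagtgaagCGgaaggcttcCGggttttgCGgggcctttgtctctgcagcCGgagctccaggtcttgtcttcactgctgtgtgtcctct
ZNF43: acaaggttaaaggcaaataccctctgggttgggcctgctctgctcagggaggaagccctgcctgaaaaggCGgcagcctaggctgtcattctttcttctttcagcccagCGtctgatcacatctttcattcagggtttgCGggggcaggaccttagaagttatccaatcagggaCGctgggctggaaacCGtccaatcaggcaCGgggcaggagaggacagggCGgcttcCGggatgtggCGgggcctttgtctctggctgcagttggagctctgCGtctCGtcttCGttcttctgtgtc
ZNF714: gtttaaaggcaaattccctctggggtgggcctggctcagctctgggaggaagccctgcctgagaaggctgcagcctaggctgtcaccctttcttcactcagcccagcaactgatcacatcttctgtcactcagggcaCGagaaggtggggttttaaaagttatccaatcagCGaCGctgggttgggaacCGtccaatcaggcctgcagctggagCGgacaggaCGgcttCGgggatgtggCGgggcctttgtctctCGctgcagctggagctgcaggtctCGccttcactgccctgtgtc
The promoter of ZNF737 (chr19:20565732-20566031, minus strand) holds 8 CG dinucleotides, that of ZNF43 (chr19:21836133-21836432, minus strand) 12 and that of ZNF714 (chr19:21081953-21082252, plus strand) 10. The deposited tables place ZNF737 (ENSG00000237440) at chr19:20535825-20565809, ZNF43 (ENSG00000198521) at chr19:21804949-21852125 and ZNF714 (ENSG00000160352) at chr19:21082159-21125270 on GRCh38. A promoter was listed for 201 of the 228 members, and for 32 members with more than 1 the first was taken. Of all 27305 promoters listed, 95.8% held a CG, and the median number was 14 over all genes and 20 over members. It was 10 over the 25 promoters of this cluster, the lowest of the 8 clusters, and 25 over the 28 promoters from ZNF175 to ZNF331. Within the cluster the median was 10 over the 18 risers and 13 over the other 7 tested. Among all members it was 16 for the 35 that rose in KO1 and 12 for the 27 of them that rose at least 2-fold. It was 22 for the 92 that fell and 20 for the 70 that did neither. Of the 35 promoters of risers 18 lay in this cluster, so these medians do not separate rising from belonging to the cluster. The 10-base word held by most promoters of the cluster, CCTGATTGGA or its reverse complement TCCAATCAGG, was in 23 of 25, in 40 of 201 member promoters and in 0.388% of all promoters. It was in 16 of the 18 risers and in 7 of the 7 others, so its presence did not separate them. It was chosen for being common in these promoters and holds the letters of a CCAAT box.

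Elsewhere in KO1 the falls were of modest size and the rises were grouped. Outside the cluster from ZNF101, the 23 other risers were 12 members between ZNF175 and ZNF331, 6 between ZNF565 and ZNF573, 4 between ZNF628 and ZNF446, and 1 other. ZNF667, in the last of these clusters, was at 1.12, 1.48 and 0.309 CPM in KO1 and at most 0.0741 in WT1 (5.01 ± 0.97, adjusted p = 0.00201). Per kilobase of summed exons, the 43 risers had a median of 0.387 CPM in WT1 and 1.49 in KO1, and in WT2, which the KO1 calls did not use, their median was 0.413. The 105 that fell had a median of 3.37 CPM per kilobase in WT1, 2.16 in KO1 and 3.36 in WT2. These levels are a description, since a low control level helps a gene to be called a riser.

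Among the falls, ZNF615 was at 7.47, 11 and 8.35 CPM in KO1 and at 21.6, 19.7 and 20.7 in WT1 (-1.21 ± 0.13, adjusted p = 4.48e-05). ZNF432, a KRAB zinc finger gene, was at 10.8, 13.4 and 12.6 CPM against 25, 22.8 and 28 (-1.05 ± 0.11, adjusted p = 2.7e-05). Both lie in an unbroken run of 13 tested members from ZNF175 to ZNF480 that all fell. ZNF846 (-1.19 ± 0.21), ZNF221 (-1.13 ± 0.17) and ZNF285 (-1.11 ± 0.17) fell with adjusted p-values of 0.00117, 0.000458 and 0.000393. ZNF233 fell by 1.47 on the log2 scale (SE 0.43, adjusted p = 0.0198), and its call was lost without KO1 replicate 3 (-1.16), WT1 replicate 2 (-1.30) or WT1 replicate 3 (-1.43). ZNF177 had 3, 2 and 0 counts in KO1 and 18, 33 and 30 in WT1, which is 15.1-fold lower with an exact 95% interval of 6.22 to 47.8 for counting error only. Its span overlaps a listed ZNF559-ZNF177 transcript on the same strand.

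In KO2 the members moved almost only downwards. Of 216 members tested against WT2, 126 fell and 2 rose, with a median log2 fold change of -0.38. Over all 18267 genes tested, 19.2% fell and 19.3% rose, with a median of -0.02. A fall of at least 2-fold was seen in 22 members, or 10.2% of those tested, against 3.61% of all genes. A rise of that size was seen in 0 members against 2.38% of all genes. Here the rest of the chromosome did not fall as a whole. Of 998 genes of chromosome 19 that are no zinc finger genes 110 fell and 256 rose, with a median of 0.08. Within the cluster intervals, medians of such genes ran from -0.60 (ZNF565 to ZNF573) to 0.03 (ZNF557 to ZNF846). The members of these clusters had medians of -0.55 and -0.27. Between ZNF175 and ZNF331 the other genes had a median of -0.29. ZNF genes on other chromosomes shifted the same way as the members, with 97 of 233 lower, 16 higher and a median of -0.20. The medians over all genes of other chromosomes ran from -0.41 for chromosome 9 to 0.16 for chromosome 21. The difference between members and the rest of their chromosome was not tested as a set. The medians of the 8 clusters spanned 0.38, from -0.23 between ZNF101 and ZNF254 to -0.61 between ZNF175 and ZNF331, where 30 of 33 members fell. The span was 0.74 without KO2 replicate 1, 0.69 without KO2 replicate 2 and 0.77 without WT2 replicate 2. Adjacent members had a Pearson's r of 0.57 over 201 pairs.

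The risers were ZNF100 and ZNF91, both in the cluster from ZNF101. ZNF100 was at 9.47, 8.15 and 6.49 CPM in KO2 and at 4.12, 4.62 and 4.48 in WT2 (0.86 ± 0.16, adjusted p = 0.000884). ZNF91 was at 11.5, 10.6 and 10.5 CPM against 8.90, 7.99 and 8.64 (0.35 ± 0.10, adjusted p = 0.0185). The call of ZNF91 was lost without KO2 replicate 1 or without WT2 replicate 2, with 0.30 in both cases, which leaves 1 riser, and 4 members rose without WT2 replicate 3. Both genes also rose in KO1, ZNF100 by 1.90 ± 0.14.

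The largest falls in KO2 lay side by side. The longest run of consecutive tested members that all fell held 18, from ZNF880 to ZNF813 over 1.13 Mb, with a median of -1.58. ZNF347 and ZNF665 lie within it and were too low to be tested. ZNF528 had 4, 3 and 4 counts in KO2 and 95, 103 and 115 in WT2 (-4.62 ± 0.40, adjusted p = 2.46e-06). ZNF468 was at 0.679, 0.917 and 0.861 CPM against 5.70, 5.64 and 6.46 (-2.86 ± 0.19, adjusted p = 3.14e-07). ZNF28 was at 0.857, 0.638 and 0.673 CPM against 7.66, 7.58 and 8.75 (-3.47 ± 0.18, adjusted p = 3.83e-08). The spans of ZNF28 and ZNF468 overlap on the same strand, so some of their reads may be shared. ZNF888 (-4.71 ± 0.59, adjusted p = 5.26e-05) and ZNF600 (-3.66 ± 0.63, adjusted p = 0.000632) were at 0.266 CPM or less in every KO2 library, with 5, 0 and 4 counts for the first and 7, 0 and 17 for the second. At such counts the fitted size depends on the prior count. Outside this run, ZNF85 fell from 2.89, 3.34 and 3.61 CPM in WT2 to 0.643, 0.698 and 0.501 in KO2 (-2.42 ± 0.24, adjusted p = 8.73e-06).

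Part of the same stretch moved the opposite way in KO1. Of the 18 members of the stretch, 10 rose in KO1, 4 fell and 4 did not pass the test. The rises lay between ZNF880 and ZNF816 and the falls from ZNF525 to ZNF761. The knockout effects differed by the test in 14 members of the stretch, which was itself picked by its falls in KO2. Across all members, 18 rose in KO1 and fell in KO2, which is 50% of the 36 risers tested in both knockouts, below the 58.6% of all 215 members that fell in KO2. Over all genes tested in both, 9.55% of the risers of KO1 fell in KO2. The reverse was seen in 0 members, of which only 2 rose in KO2 at all. Of the 18, 10 lay between ZNF175 and ZNF331, 6 between ZNF101 and ZNF254 and 2 between ZNF565 and ZNF573. The difference between the knockout effects passed the test in each of these 18 members of opposite calls, in a fit over all 12 libraries of the table. Because the groups were chosen by opposite calls in the same libraries, the signs of these differences are no separate evidence.

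ZNF468 was at 26.8, 27.0 and 27.6 CPM in KO1 and at 5.22, 6.01 and 5.47 in WT1, so that its 4 groups stood in the order KO1, both controls, KO2 with no overlap between the knockouts and the controls. The KO1 effect exceeded the KO2 effect by 5.14 ± 0.17 (adjusted p = 5.56e-12). ZNF888 was at 8.82, 11.1 and 9.30 CPM in KO1, at 0.902, 0.575 and 0.741 in WT1, at 1.55, 1.26 and 1.43 in WT2 and at 0.0893 or less in KO2 (8.41 ± 0.50, adjusted p = 6.83e-09). ZNF320 was at 10.6, 9.19 and 9.08 CPM in KO1, at 0.389 to 0.474 in WT1, at 0.461 to 0.650 in WT2 and at 0.0797 or less in KO2 (8.88 ± 0.62, adjusted p = 5e-08). ZNF600 differed by 5.73 ± 0.63 (adjusted p = 5.12e-06). Summed over the 18 members, the level was 61.4 ± 1.88 CPM in WT1 and 62.5 ± 1.71 in WT2 (SD, n = 3), and 197 ± 12.7 in KO1 and 22.4 ± 0.618 in KO2.

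**Figure D4:**
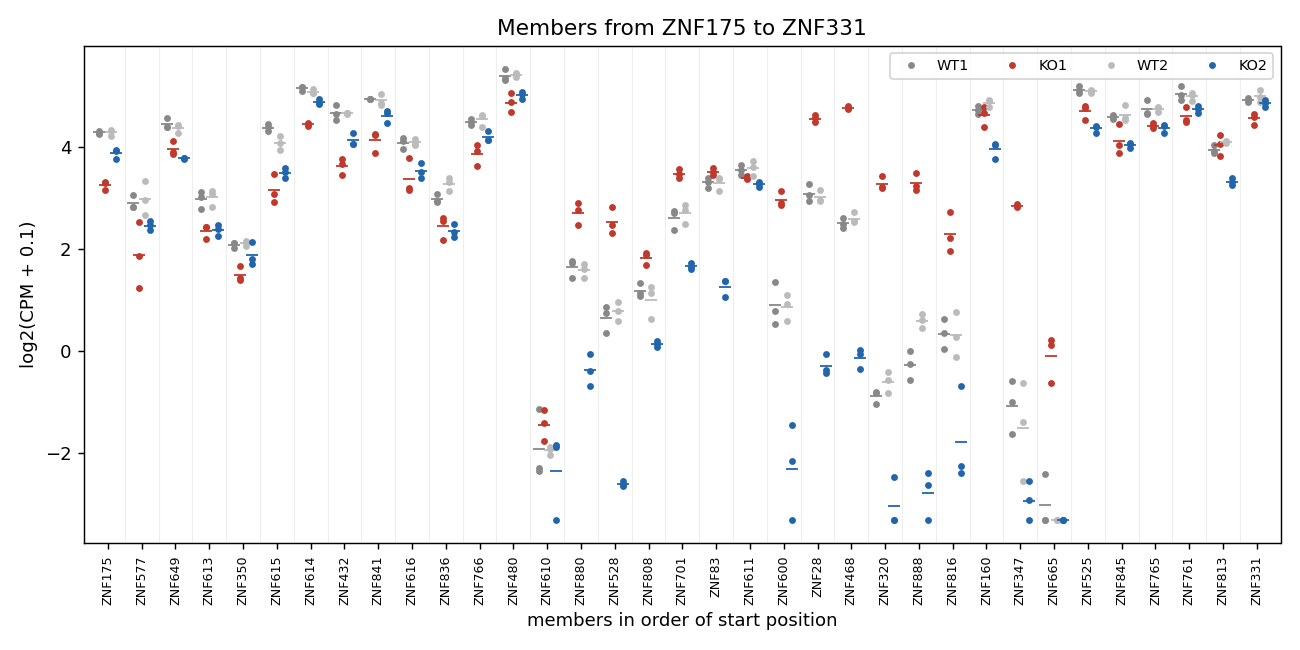
Level of each member from ZNF175 to ZNF331, in order of start position, as log2(CPM + 0.1) in each library (points) with the group mean (dash) for WT1, KO1, WT2 and KO2. From ZNF175 to ZNF480 both knockouts lie at or below their controls, and from ZNF880 to ZNF816 KO1 (red) lies above and KO2 (blue) below the controls for 10 members, while ZNF83 and ZNF611 did not pass the test in KO1.

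Promoters of 3 members of this stretch are shown in the same form, because ZNF528 and ZNF468 moved in opposite directions in the knockouts and ZNF347, farther along, rose in KO1 from a low level in both controls.
ZNF528: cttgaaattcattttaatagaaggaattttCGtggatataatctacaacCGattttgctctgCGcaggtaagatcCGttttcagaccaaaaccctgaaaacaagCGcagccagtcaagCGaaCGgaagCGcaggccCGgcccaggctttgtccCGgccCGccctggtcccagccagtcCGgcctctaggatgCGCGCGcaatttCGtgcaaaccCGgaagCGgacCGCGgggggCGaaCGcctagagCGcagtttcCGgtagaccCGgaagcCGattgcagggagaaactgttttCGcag
ZNF468: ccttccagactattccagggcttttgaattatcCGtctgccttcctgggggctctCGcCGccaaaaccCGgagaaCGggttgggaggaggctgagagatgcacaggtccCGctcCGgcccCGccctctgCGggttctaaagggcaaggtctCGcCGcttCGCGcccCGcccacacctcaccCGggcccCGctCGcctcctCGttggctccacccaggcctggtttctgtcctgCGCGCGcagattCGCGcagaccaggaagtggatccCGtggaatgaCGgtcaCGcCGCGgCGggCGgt
ZNF347: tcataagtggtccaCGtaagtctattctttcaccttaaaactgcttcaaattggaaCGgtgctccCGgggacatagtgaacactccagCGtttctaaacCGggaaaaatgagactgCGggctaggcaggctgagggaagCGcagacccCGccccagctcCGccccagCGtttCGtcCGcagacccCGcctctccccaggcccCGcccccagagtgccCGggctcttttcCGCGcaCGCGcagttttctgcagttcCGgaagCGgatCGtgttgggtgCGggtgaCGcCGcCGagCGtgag
They hold 27, 30 and 27 CG dinucleotides, against 8 to 12 in the promoters of the other cluster shown above. Their windows are chr19:52397599-52397898 on the plus strand, chr19:52857570-52857869 on the minus strand and chr19:53159004-53159303 on the minus strand. In the deposited tables ZNF528 (ENSG00000167555) spans chr19:52397849-52418412, ZNF468 (ENSG00000204604) chr19:52838008-52857649 and ZNF347 (ENSG00000197937) chr19:53124072-53159075. ZNF347 was at 7.26, 6.95 and 7.08 CPM in KO1, at 0.403, 0.223 and 0.563 in WT1 (4.13 ± 0.28, adjusted p = 1.56e-06), at 0.551, 0.0718 and 0.283 in WT2 and at 0.0714 or less in KO2, where it was too low to be tested. Its knockout effects differed by 7.19 ± 0.85 (adjusted p = 1.21e-05). The median number of CG was 21 in the 18 matched promoters of members that fell at least 2-fold in KO2, near the 20 of members as a whole.

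Over all members tested in the fit of the difference, the KO1 effect was above the KO2 effect in 51 of 225 and below it in 30, with a median of 0.02. Over all 19189 genes tested, 11.2% were above and 12.1% below. Of the members 22.7% were above and 13.3% below. Of 1041 chromosome 19 genes that are no zinc finger genes, 3.17% were above and 41.5% below, with a median of -0.46. Of 234 ZNF genes on other chromosomes, 19.2% were above and 4.7% below, with a median of 0.10. Among the members with the KO1 effect below the KO2 effect, 1 member differed at least 2-fold. It was ZNF676, named after its values were seen because its counts were under the minimum for naming, with 0 counts in each KO1 library, 6, 26 and 26 in WT1, 3, 7 and 32 in KO2 and 53, 23 and 33 in WT2 (adjusted p = 0.0256). Its groups overlapped between KO2 and WT2, and its fitted difference depends on the prior count. Among members with enough counts to be named, the downward differences were under 2-fold: ZNF524 (-0.91 ± 0.23, adjusted p = 0.00908), ZNF579 (-0.80 ± 0.13, adjusted p = 0.000207) and ZNF444 (-0.79 ± 0.13, adjusted p = 0.00025) fell in KO1 and did not pass the test in KO2. ZNF579, for example, was at 12.2, 11.4 and 14.8 CPM in KO1, at 21.9 to 23.3 in WT1, at 21 to 23.6 in KO2 and at 22.1 to 23.8 in WT2.

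Among 215 members tested in both knockouts, 69 fell in both, which is 65.7% of those that fell in KO1 and 54.8% of those that fell in KO2. Since 58.6% of the 215 fell in KO2, the first of these shares is near that of members as a whole. Over all 17445 genes tested in both, 44.7% of those that fell in KO1 fell in KO2, against 19.9% of all. Of the 69 members, the difference between the effects did not pass the test in 55. The rises shared were those of ZNF100 and ZNF91. ZNF112 was at 5.53, 7.11 and 4.17 CPM in KO1 against 11.8, 11.7 and 11.1 in WT1 (-1.05, adjusted p = 0.000685), and at 7.36, 6.22 and 4.94 in KO2 against 13.2, 14.4 and 11.1 in WT2 (-1.07, adjusted p = 0.000144). ZNF606 fell by 1.04 in KO1 (adjusted p = 0.000391) and by 0.98 in KO2 (adjusted p = 0.00708), and ZNF846 by 1.19 and by 1.03 (adjusted p = 0.00192 in KO2). ZNF233 also fell in KO2 (-1.13 ± 0.31, adjusted p = 0.0118). Set side by side over the 215 members, the effects in KO1 and in KO2 gave a Pearson's r of -0.36, a description in which adjacent genes are not independent.

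The members of highest level were the same in both knockout controls. Per kilobase of summed exons, ZNF146, a zinc finger gene without a KRAB domain, stood at 49.5 ± 4.17 CPM in WT1 (SD, n = 3), ZNF358 at 26.4 ± 0.863 and ZNF428 at 17.5 ± 0.777, and their ranges did not overlap. In WT2 the same genes led, at 46.5 ± 1.68, 23.6 ± 1.71 and 17.6 ± 1.53. In the separately normalized tables ZNF146 also stood first, at 43.0 ± 0.224 in Vector and 45.1 ± 1.78 in siNC, but ZNF358 was not among the first 10 there, and ZNF224 was the next in Vector and ZNF428 in siNC. The median member was at 2.06 CPM per kilobase in WT1 and 2.10 in WT2. In KO1 all 3 leading genes fell: ZNF146 by 0.52 (adjusted p = 0.000357), ZNF358 by 0.72 (adjusted p = 2.77e-05) and ZNF428 by 0.96 (adjusted p = 3.23e-06). In KO2 only ZNF428 of these passed the test (-0.36, adjusted p = 0.0014), with -0.05 for ZNF146 (adjusted p = 0.31) and 0.05 for ZNF358 (adjusted p = 0.514). At the ends of the chromosome, ZNF554, the first member, fell by 0.40 in KO1 (adjusted p = 0.0462) and by 0.33 in KO2 (adjusted p = 0.0205). The KO1 call of ZNF554 was lost without any 1 of 5 libraries, with values of -0.28 to -0.46, and its KO2 call without KO2 replicate 3 (-0.30), WT2 replicate 1 (-0.29) or WT2 replicate 2 (-0.31). ZNF446, the last member, fell by 0.79 in KO1 (adjusted p = 0.00224) and was at -0.34 in KO2 (adjusted p = 0.0605), where it passed the test without KO2 replicate 3 (-0.43).

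Few members passed the test when ANKRD10-1 was raised. In ANKRD10-1 against Vector, 4 of 224 members rose and 1 fell, with a median of 0.01, against 3.51% and 2.81% of all 20453 genes tested. ZNF547 (0.49 ± 0.14, adjusted p = 0.0459), ZNF473 (0.30 ± 0.08, adjusted p = 0.03) and ZNF146 (0.20 ± 0.04, adjusted p = 0.00999) rose. ZNF473, which takes part in the 3′ processing of histone pre-mRNA, was at 14.5, 16 and 14.5 CPM against 12.8, 12 and 11.7 in Vector. ZNF302 fell from 23.7, 23.1 and 21.8 CPM in Vector to 16.5, 19.2 and 16.4 (-0.39 ± 0.08, adjusted p = 0.00397). The number of risers was 0 without ANKRD10-1 replicate 1 or replicate 2, 2 without ANKRD10-1 replicate 3 or Vector replicate 2, and 2 members fell without Vector replicate 3. The call of ZNF547 was lost without any 1 of the 6 libraries (0.44 to 0.54), that of ZNF473 without each library other than Vector replicate 1 (0.25 to 0.33) and that of ZNF146 without ANKRD10-1 replicate 1 (0.18) or 2 (0.19).

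In ANKRD10-2 against Vector, which shares the Vector libraries, 10 of 221 members rose and 19 fell, with a median of -0.04, against 10.7% and 9.25% of all 20173 genes. Of the members, 4.52% rose and 8.6% fell. ZNF823 was at 11.3, 10.6 and 10.2 CPM against 7.40, 7.45 and 7.59 (0.52 ± 0.09, adjusted p = 0.00114). ZNF547 (0.44, adjusted p = 0.0487) and ZNF473 (0.33, adjusted p = 0.00886) rose, and the call of ZNF547 was lost without any 1 of the 6 libraries (0.38 to 0.50). ZNF583 (-1.10 ± 0.29, adjusted p = 0.0172), ZNF221 (-0.97 ± 0.22, adjusted p = 0.00739) and ZNF780B (-0.70 ± 0.15, adjusted p = 0.00438) fell. ZNF583 was at 0.519 CPM or less in ANKRD10-2 and at 0.930 or more in Vector, and its call was lost without ANKRD10-2 replicate 1 (-1.02) or Vector replicate 2 (-0.98). Risers numbered 6 without ANKRD10-2 replicate 3 and 5 without Vector replicate 2, and 11 members fell without Vector replicate 1.

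Few members passed with siRNA to ANKRD10-1 as well. In siANKRD10-1 against siNC, 4 of 206 members rose and 1 fell, with a median of -0.01, against 4.87% and 5.72% of all 18781 genes tested. ZNF17 was at 5.36, 5.47 and 5.28 CPM against 3.56, 3.60 and 3.43 in siNC (0.60 ± 0.13, adjusted p = 0.00649). ZNF616 was at 11.4, 11.5 and 11.4 CPM against 8.68, 6.99 and 7.46 (0.56 ± 0.10, adjusted p = 0.00175). ZNF766 rose by 0.30 (adjusted p = 0.0263), and ZNF136 fell by 0.59 (adjusted p = 0.0292). The call of ZNF766 was lost without siANKRD10-1 replicate 1 (0.30) or 2 (0.26) or siNC replicate 1 (0.22), and that of ZNF136 without siANKRD10-1 replicate 1 (-0.58) or 3 (-0.51) or siNC replicate 1 (-0.51) or 3 (-0.58). Risers numbered 8 without siANKRD10-1 replicate 2 and 2 without siNC replicate 1. The number that fell was 4 without siANKRD10-1 replicate 2 or siNC replicate 3, and 0 without siANKRD10-1 replicate 1 or 3 or siNC replicate 1.

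In siANKRD10-2 against the same siNC libraries, 28 of 206 members rose and 16 fell, with a median of 0.01. Over all 18920 genes tested, 17.6% rose and 18.7% fell, and the members' shares, 13.6% and 7.77%, were below both. ZNF616 was at 15.2, 14.1 and 15.3 CPM against 8.68, 6.99 and 7.46 (0.95 ± 0.10, adjusted p = 3.19e-08). ZNF71 was at 18.8, 18.1 and 18.5 CPM against 10.2, 9.16 and 9.79 (0.93 ± 0.09, adjusted p = 4.08e-09). ZNF763 rose from 0.630 to 1.02 CPM in siNC to 1.57 to 1.81 (0.98 ± 0.27, adjusted p = 0.00536). ZNF414 (-0.80 ± 0.19, adjusted p = 0.0017), ZNF14 (-0.76 ± 0.23, adjusted p = 0.00951) and ZNF256 (-0.59 ± 0.16, adjusted p = 0.0042) fell. The calls of ZNF14 (-0.65) and ZNF256 (-0.43) were lost without siNC replicate 2, which left 10 members that fell, and 17 rose without siANKRD10-2 replicate 1. Of the 18 members that moved in opposite directions in the knockouts, 13 could be tested in each knockdown comparison. In siANKRD10-1 0 passed, and in siANKRD10-2 1 passed, which fell. In ANKRD10-1 18 could be tested and in ANKRD10-2 17, and 0 passed in either. The shares of all genes are those given above for each comparison. In siNC the 18 averaged 1.76 CPM or less apart from ZNF738 at 8.83. At such levels modest changes can be missed, so these counts do not show that the genes were unaffected. Adjacent members had a Pearson's r between 0.02 and 0.15 in these 4 comparisons.

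**Figure D5:**
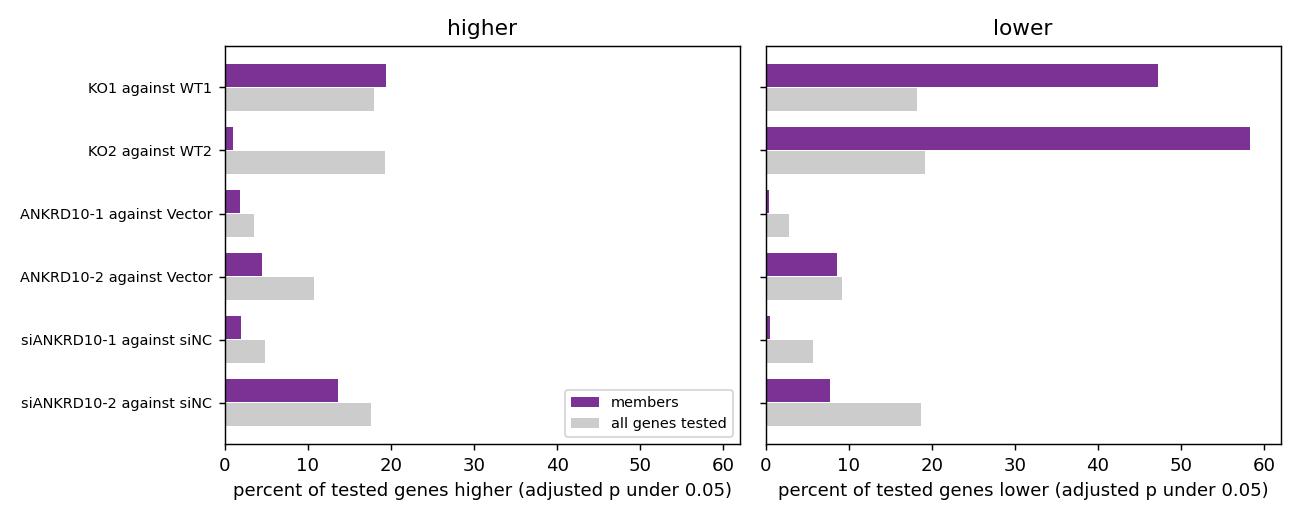
Percent of tested members (purple) and of all genes tested (grey) that were higher (left) or lower (right) at an adjusted p under 0.05 in each of the 6 comparisons with a control group. The bars of members reach 47.3% and 58.3% lower in KO1 and KO2, and in the 4 comparisons on ANKRD10 the members lie below all genes in both directions.

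The genes listed for corepressors of KRAB proteins, and for other chromatin and DNA methylation factors such as DNMT3A, moved in both directions. All 25 genes listed were tested in each comparison. In KO1 3 rose and 8 fell with a median of -0.08, and in KO2 5 rose and 10 fell with a median of -0.01, against the shares of all genes given above. TRIM28, itself on chromosome 19 at chr19:58544091-58550722, fell by 0.43 in KO1 (SE 0.06, adjusted p = 0.000153) and was at 0.02 in KO2 (adjusted p = 0.7). These effects differed by -0.45 (adjusted p = 9.95e-05). Near these values, chromosome 19 genes that are no zinc finger genes had medians of -0.40 in KO1 and 0.08 in KO2. Their median difference was -0.46, so the change of TRIM28 is not read as particular to corepressors. SETDB1 was at 0.06 in KO1 (adjusted p = 0.445) and fell by 0.29 in KO2 (adjusted p = 0.000454), with a difference of 0.35 (adjusted p = 0.0018). The largest change of the list in both knockouts was that of DNMT3A, a de novo DNA methyltransferase, which fell by 1.20 in KO1 (adjusted p = 6.95e-08) and by 0.73 in KO2 (adjusted p = 6.2e-07), a difference of -0.48 (adjusted p = 0.000139). In ANKRD10-1 0 of the 25 rose and 1 fell, and ATRX moved most (-0.30, adjusted p = 0.0178). In ANKRD10-2 3 rose and 6 fell, again with ATRX first (-0.42, adjusted p = 0.00382). In siANKRD10-1 0 rose and 5 fell, where CBX3 (-0.32, adjusted p = 0.00397) and DNMT3A (-0.32, adjusted p = 0.00527) moved most and by the same size. In siANKRD10-2 11 rose and 3 fell, with CBX1 first (0.50, adjusted p = 3.43e-08), and TRIM28 fell by 0.36 (adjusted p = 6.02e-06). Over all genes tested, 3.51% rose and 2.81% fell in ANKRD10-1, and 10.7% and 9.25% in ANKRD10-2. The same shares were 4.87% and 5.72% in siANKRD10-1, and 17.6% and 18.7% in siANKRD10-2. The part of the 25 listed genes in the changes of the members was not tested.

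Some members could not be tested. In KO1 6 members had too few counts, ZNF556, ZNF676, ZNF285B, ZNF154, ZNF671 and ZNF132, and in KO2 12 had too few, including ZNF626, ZNF257, ZNF730, ZNF347, ZNF665 and ZNF667, which all rose in KO1. A member passed the filter in KO1 through the group in which it was high, so the counts of risers cover only genes with enough reads in KO1. Because 3 libraries stood against 3, an exact permutation test could not give a p-value under 0.1 for a single gene.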

How the data were processed

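Poly(A) RNA of 30 libraries in 10 groups of 5637 cells was sequenced with a stranded kit. The values the authors deposited are raw counts per gene, in 3 tables, with no normalization. The submitters' processing notes name Trimmomatic 0.36, featureCounts of Subread 1.5.1 and GRCh38, and the methods of the study name Cutadapt, Trimmomatic, HISAT2, StringTie and DESeq2. The annotation, the strand setting and the handling of reads that map to several genes are not given in the sources used here, so near-identical paralogs and overlapping genes may have exchanged reads. Coordinates are those of the overexpression table. Rows of the knockout table, which carry Ensembl identifiers, were matched by current symbol or else by GENCODE symbol.

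Each group was compared with its own control by edgeR 4.0.16 in R 4.3.3: genes kept by filterByExpr (minimum count 10, minimum total 15), TMM, the quasi-likelihood test, and Benjamini-Hochberg adjustment over all genes tested, with a threshold of 0.05. A prior count of 0.125 enters each fitted log2 fold change. The difference between the knockouts was fitted over the 12 libraries of that table. Total counts of 28511029 to 69723937 per library set the precision; folds of genes with 3 or fewer counts in every library of a group are given from their counts, and intervals cover counting error only.

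The genes named are the members past the threshold with the largest changes, where normalized counts averaged 20 or more (6 each way in the knockouts, 3 each way elsewhere), those shared by or opposite in the knockouts, the 3 of highest level per length in WT1, those at 3 counts or fewer in a group against at least 10 in every library of the other, and the first and last along the chromosome. ZNF43, ZNF93, ZNF676, ZNF714 and the genes whose promoters are printed were picked after their values were seen. The members, lists and rules were chosen with earlier results of these data known. Promoters are from RefSeq; protein sequences were not used here. Alternatives were DESeq2 1.42.0, median-of-ratios size factors, no filter, a replicate block, all groups of a table in 1 fit, clusters split at 2 Mb, and leaving out each library. The replicate numbers were not taken as pairs, because in 0 of 6 comparisons did every same-numbered pair correlate above 0.1.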

Additional observations from a re-analysis of the deposited data

Results flagged for a closer look

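Effects of the knockouts that differed from each other are listed here, by the test of the difference itself (edgeR, adjusted over all genes tested). The KO1 effect was above the KO2 effect in 51 members and below it in 30, or 22.7% and 13.3% of those tested. Of ZNF genes on other chromosomes 19.2% were above and 4.7% below. Of chromosome 19 genes that are no zinc finger genes 3.17% were above and 41.5% below. The differences were 8.88 on the log2 scale for ZNF320, 8.41 for ZNF888, 7.19 for ZNF347, 5.73 for ZNF600 and 5.14 for ZNF468, all in the stretch after ZNF480. Downwards they were -0.91 for ZNF524, -0.80 for ZNF579 and -0.79 for ZNF444, near the end of the long arm. ZNF676, with 0 counts in each KO1 library, also passed below the KO2 effect, and its fitted difference of -6.03 is the lowest of all members and depends on the prior count. These genes were named for the size of their difference or for opposite calls. The fitted sizes of ZNF320, ZNF888 and ZNF347 rest on KO2 libraries at 0.0893 CPM or less and depend on the prior count. The control groups stood close to each other: the sum over the 18 members of opposite calls was 61.4 ± 1.88 CPM in WT1 and 62.5 ± 1.71 in WT2 (SD, n = 3), against 197 ± 12.7 in KO1 and 22.4 ± 0.618 in KO2. Whether the difference follows the guides or the clones cannot be told apart, since each knockout had 1 guide and may stand for 1 clone.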

How the results depend on the processing

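Of 262 alternative values of the counts, medians and spans, 225 stayed within 1.5 times the count or within the spread between replicates of the median, and of 953 alternative values of single genes 902 kept their direction and their side of the threshold, 50 lost the call, 1 gained it and 0 reversed. The cause of each change was not tested. With clusters split at gaps of 2 Mb the span of cluster medians in KO2 was 0.32 in place of 0.38. Without a filter on low counts 7 members rose in ANKRD10-1 in place of 4, and 2 fell in siANKRD10-1 in place of 1. With all groups of the table in 1 fit 7 rose in siANKRD10-1. With a replicate block 7 rose and 5 fell in siANKRD10-1, in place of 4 and 1, and it took the call from ZNF547 in both overexpression comparisons and from no other named gene. In KO2 and in ANKRD10-2 all 3 libraries correlated best with their own number, a hint from the data and not from the design. Without 1 library at a time, the span of cluster medians ran from 2.20 to 2.46 in KO1 and from 0.37 to 0.77 in KO2. Members that rose ran from 1 to 4 in KO2, 0 to 5 in ANKRD10-1, 5 to 8 in ANKRD10-2, 2 to 8 in siANKRD10-1 and 17 to 25 in siANKRD10-2. Members that fell ran from 1 to 2 in ANKRD10-1, 11 to 21 in ANKRD10-2, 0 to 4 in siANKRD10-1 and 10 to 17 in siANKRD10-2. The median of members ran from 0.00 to 0.04 in ANKRD10-1 and from -0.07 to -0.05 in ANKRD10-2. In KO1, where 43 rose and 105 fell, the counts ran from 39 to 43 and from 90 to 105, and in KO2, where 126 fell, from 104 to 116.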

Other observations

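The 18 members that rose in KO1 and fell in KO2 are given here in the controls of the other experiments, side by side and with no test, because the tables were normalized separately. Their summed level was 57.0 ± 2.07 CPM in Vector (SD, n = 3), near WT1 and WT2, and 20.6 ± 0.648 CPM in siNC, near KO2 at 22.4 ± 0.618. The likeness is one of sums, and single members differed in both directions. ZNF93 averaged 1.07 CPM in siNC and 3.13 in KO2, and ZNF320 0.32 and 0.0266. ZNF468 averaged 2.83 CPM in Vector and 5.57 in WT1, and ZNF738 13.0 and 8.72. The mean was lower in siNC than in Vector for 17 of the 18 and higher for ZNF43, at 0.929 ± 0.046 CPM in siNC and 0.819 ± 0.202 in Vector. No share over all members or all genes stands beside this count, so it is not read as particular to the 18. ZNF738 alone made up 8.83 CPM of the siNC sum and 13 of the Vector sum. Among the members with large contrasts, ZNF528 was at 1.62 to 1.92 CPM in Vector and at 0.0621 or less in siNC. ZNF28 was at 4.80 to 6.41 CPM in Vector and at 0.396 to 0.652 in siNC. ZNF468 was at 2.77 to 2.88 CPM in Vector and at 0.731 to 0.807 in siNC. Within each of these experiments the treated groups stood close to their control: the sum was 57.7 ± 3.17 CPM in ANKRD10-1 and 55.5 ± 1.11 in ANKRD10-2, and 18.4 ± 1.32 in siANKRD10-1 and 20.5 ± 1.79 in siANKRD10-2. The sum over all members was also lower in siNC, at 1840 ± 18.6 CPM, than in Vector at 2690 ± 69.6, WT1 at 3460 ± 44.6 and WT2 at 3510 ± 42.6. RBPMS was at 4.53 to 5.88 CPM in siNC and 4.74 to 5.43 in Vector, below the 39 to 44.2 CPM of WT1 and WT2. The study places siANKRD10-2 knockdown in RBPMS-knockout cells, which the labels do not state. It places ANKRD10-1 overexpression in such cells too, and the ANKRD10-1 sum of 57.7 ± 3.17 CPM stood near Vector and not near KO2. The part of any of these in the siNC level was not tested.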
